A study of Mus musculus with 6 samples.

Results

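The Hox genes encode homeodomain transcription factors that give cells of the embryo their position along the head-to-tail axis. In the mouse they stand in 4 clusters on 4 chromosomes, and their order along the chromosome follows the order in which they are used along the body, from anterior genes such as Hoxb1 to posterior genes such as Hoxb13. In embryonic stem cells the clusters are known as broad domains of Polycomb repression that also carry marks of activity, and during development the HoxA and HoxD clusters contact distant enhancers in the gene-poor regions on either side. The 39 protein-coding genes whose symbols are Hoxa, Hoxb, Hoxc or Hoxd followed by a number were taken from the RefSeq annotation of GRCm38.p6, out of 20375 protein-coding genes that could be placed in a labelled bin. They were chosen by name and not by any measured value.

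Chromatin contacts were measured by Hi-C, in which neighbouring DNA ends are ligated in crosslinked nuclei and sequenced, in wild-type E14 mouse embryonic stem cells, an established line kept in serum and leukemia inhibitory factor. All cells were transfected with esiRNA, a pool of short interfering RNAs cut from a long double strand, and were harvested 48 h later. The 3 groups of 2 libraries each were Control (esiRNA against EGFP, made from a plasmid), Brg1KD (esiRNA against Smarca4, which encodes Brg1, the ATPase of the BAF remodelling complex) and Ino80KD (esiRNA against the ATPase gene Ino80 of another remodeller, INO80). The labels call the replicate number a batch, so replicate 1 of each group shares batch 1 and replicate 2 shares batch 2, and nothing in them says that replicates came from separate cultures: p-values measure only the spread between these libraries, which may be technical. Hi-C gives no transcript level, so neither the depth of the knockdown nor the expression of any Hox gene was measured here.

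For each library the authors deposited segments with 1 of 8 subcompartment labels, ordered from B.2.2, the most inactive (step 1), through the B and A labels to A.1.1, the most active (step 8). Steps 5 to 8 are A. A subcompartment is a class of chromatin that prefers contact with its own kind, and a label is relative to its own library. Each gene was given the label of the 50 kb bin that holds its midpoint, and 47717 bins were labelled in all 6 libraries. The libraries held 5044 to 5234 segments each, and 38.4% to 39.7% of bins lay in A. The 8 marker genes of embryonic stem cells, among them Pou5f1, Sox2 and Nanog, were in A in every library. So were 4 of 6 fibroblast genes. Loops, which are pairs of 10 kb anchors that contact each other more than their surroundings, were deposited as 1 list for each group, with positions only. The lists therefore have no replicates and no test, and read numbers are not given in the sources used here, so the depth behind labels and loops is unknown.

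HoxA covered chr6:52155367-52260880 with 11 genes in 3 bins, with its anterior end at the low end. HoxB covered chr11:96194316-96368254 with 10 genes in 4 bins, HoxC chr15:102921131-103036856 with 9 genes in 3 bins and HoxD chr2:74668225-74765142 with 9 genes in 3 bins. In these 3 clusters the paralog group 13 gene lay at the low end. The 39 genes therefore rest on 13 bins, and genes of 1 bin are a single measurement. The clusters also hold microRNAs, short RNAs that bind targets through their seed, bases 2 to 8. The 4 mature sequences of the miR-10 and miR-196 families are shown because copies of the same seed sit in different clusters. They were chosen after their labels were seen and come from RefSeq GRCm38.p6, with the seed in capitals.
miR-10a-5p (HoxB, chr11:96317186-96317208): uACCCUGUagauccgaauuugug
miR-10b-5p (HoxD, chr2:74726074-74726096): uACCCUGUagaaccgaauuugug
miR-196a-5p (HoxB, chr11:96265187-96265208, and HoxC, chr15:102973365-102973386): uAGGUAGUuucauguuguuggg
miR-196b-5p (HoxA, chr6:52230129-52230150): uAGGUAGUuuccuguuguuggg
The miR-10 pair shares the seed ACCCUGU and differs by U12A, counted from the 5′ end, with miR-10a given first. The miR-196 pair shares the seed AGGUAGU and differs by A12C, with miR-196a given first. Mir196b lay in a bin labelled A.1.1 in all 6 libraries, whereas Mir10b lay in a HoxD bin that was A.2.1 in 3 libraries and A.1.2 in the other 3.

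RefSeq promoters were at hand for 22 of the 39 genes (24 promoters). Of these 24, 9 lay in a 10 kb anchor in all 3 loop lists, against 3.54% of 31396 autosomal promoters, and 11 lay in an anchor of any list, against 10.3%. Neighbouring promoters can share an anchor, as those of Hoxa3 and Hoxa7 did, so the 9 are not 9 separate anchors. The promoters of Hoxa3, Hoxb8 and Hoxd3, genes that pattern the neck, trunk and upper spine, are shown because their anchors carried loops in all 3 lists, which are described further on. Each is given as the 250 bases before the start (RefSeq, GRCm38.p6, 5′ to 3′ on the gene's strand). No HoxC promoter at hand lay in such an anchor.
Hoxa3 (chr6:52213068-52213317, minus strand): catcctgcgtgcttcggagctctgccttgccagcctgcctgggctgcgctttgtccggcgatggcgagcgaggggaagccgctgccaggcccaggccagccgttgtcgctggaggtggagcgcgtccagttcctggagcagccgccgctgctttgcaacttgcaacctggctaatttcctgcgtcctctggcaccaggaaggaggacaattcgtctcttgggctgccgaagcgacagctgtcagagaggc
Hoxb8 (chr11:96281655-96281904, plus strand): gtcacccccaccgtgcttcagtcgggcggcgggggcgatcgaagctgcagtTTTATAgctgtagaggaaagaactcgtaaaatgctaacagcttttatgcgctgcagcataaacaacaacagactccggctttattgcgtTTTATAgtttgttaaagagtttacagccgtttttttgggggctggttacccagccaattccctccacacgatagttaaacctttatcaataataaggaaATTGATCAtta
Hoxd3 (chr2:74711743-74711992, plus strand): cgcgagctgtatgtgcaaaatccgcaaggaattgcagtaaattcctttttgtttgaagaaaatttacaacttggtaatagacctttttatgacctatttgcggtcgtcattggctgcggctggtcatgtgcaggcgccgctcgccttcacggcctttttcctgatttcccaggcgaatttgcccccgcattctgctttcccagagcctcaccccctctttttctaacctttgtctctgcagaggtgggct
Capitals mark matches, on either strand, to the TATA motif TATAAA and to the site TGATNNAT, which Hox proteins can bind together with their Pbx partners. Of the 3 promoters shown, the Hoxb8 one held 2 matches to TATAAA and 1 to TGATNNAT, and the other 2 held none. TATAAA was found in 4 of the 24 Hox promoters and in 12.4% of all 32851 promoters of that length, and TGATNNAT in 4 of 24 and 7.68%. Matches describe letters only.

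All 39 Hox genes lay in the A compartment in all 6 libraries, against 67.8% of all protein-coding genes and 34.6% of all bins. The 39 genes stand in 4 clusters and are not 39 separate places, and some related gene lists given further on lay in A as fully. HoxA held the highest label. HoxD, whose genes pattern limbs and the trunk, held the lowest of the 4 on average and stood nearest to B chromatin. No Hox gene left A in a knockdown library, and at no Hox gene did both libraries of one group lie beyond both of another. Groups lay apart in this way at 10.3% of all bins for Brg1KD against Control and 6.25% for Ino80KD against Control. The share was 8.86% for Brg1KD against Ino80KD. At such shares few of the 13 Hox bins would lie apart, so finding none does not set them off from other bins.

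In HoxA, the bin of Hoxa2, Hoxa3 and Hoxa4 and the bin of Hoxa5, Hoxa6, Hoxa7, Hoxa9, Hoxa10 and Hoxa11 were A.1.1 in every library. Hoxa13, the posterior end gene that is needed for the hand and foot plate, lay in a bin that was A.1.1 in 5 libraries and A.2.1 in Brg1KD replicate 2. Its mean step was 8 in Control and 7 in Brg1KD, a difference of -1 that came from that library alone (limma, adjusted p = 0.808). Without Brg1KD replicate 1 the same bin passed the threshold (adjusted p = 2.5e-05), in a fit where the lone library is assumed to vary like the other groups and 10.95% of all bins were called. Over the 8 fits of that comparison its adjusted p ran from 2.5e-05 to 1.

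In HoxB, the bins of Hoxb3 to Hoxb9 and of Hoxb13 were A.1.2 in Control replicate 1, A.1.1 in Control replicate 2 and A.1.2 in all 4 knockdown libraries. In Control replicate 2 a single A.1.1 segment of 1400 kb ran into the cluster, while in the other 5 libraries a separate A.1.2 segment of 200 to 250 kb held these genes. The difference was -0.5 steps in both knockdowns (limma, adjusted p = 0.808 for Brg1KD and 0.97 for Ino80KD). Without Control replicate 1, all 8 of these genes were called lower in both knockdowns (adjusted p = 3.0e-05 and 3.7e-05 for the Hoxb9 bin). In those fits 10.02% and 8.17% of all bins were called, against 4.83% and 3.22% with all libraries. Without Control replicate 2 the difference at these genes was 0. The anterior genes Hoxb1 and Hoxb2, which act in the hindbrain, shared a bin that alternated between A.1.2 and A.2.1 within each group: A.1.2 in replicate 1 and A.2.1 in replicate 2 of Control, and the reverse in both knockdowns.

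In HoxC, all 3 bins, from Hoxc4 to Hoxc13, were A.1.2 in Control replicate 1 and Brg1KD replicate 1 and A.1.1 in the other 4 libraries. The group means were 7.5, 7.5 and 8 for Control, Brg1KD and Ino80KD, and the Ino80KD difference of 0.5 was within the Control spread (SD 0.707). The cluster lies between the Calcoco1 and Smug1 genes.

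In HoxD, the 8 genes from Hoxd3 to Hoxd13 were A.2.1 in Control replicate 1, A.1.2 in Control replicate 2, A.1.2 and A.2.1 in the Brg1KD replicates, and A.2.1 and A.1.2 in the Ino80KD replicates. Each group thus spanned the same pair of labels. Hoxd1, the anterior end gene, lay alone in the next bin, which was A.2.1 and A.1.2 in Control, A.2.2 and A.2.1 in Brg1KD, and A.2.1 and A.1.2 in Ino80KD. In both batches Brg1KD was 1 step below Control and below Ino80KD at this bin, but Brg1KD replicate 2 and Control replicate 1 held the same label, so the groups did not lie apart. The limma fit did not call it (adjusted p = 0.808 against Control). With the replicate number as a block it was called, with adjusted p = 2.0e-05 against Control and 2.5e-05 against Ino80KD. With one common variance for all bins the adjusted p against Control was 0.236, and over the 8 fits it ran from 2.0e-05 to 1.

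**Figure D1:**
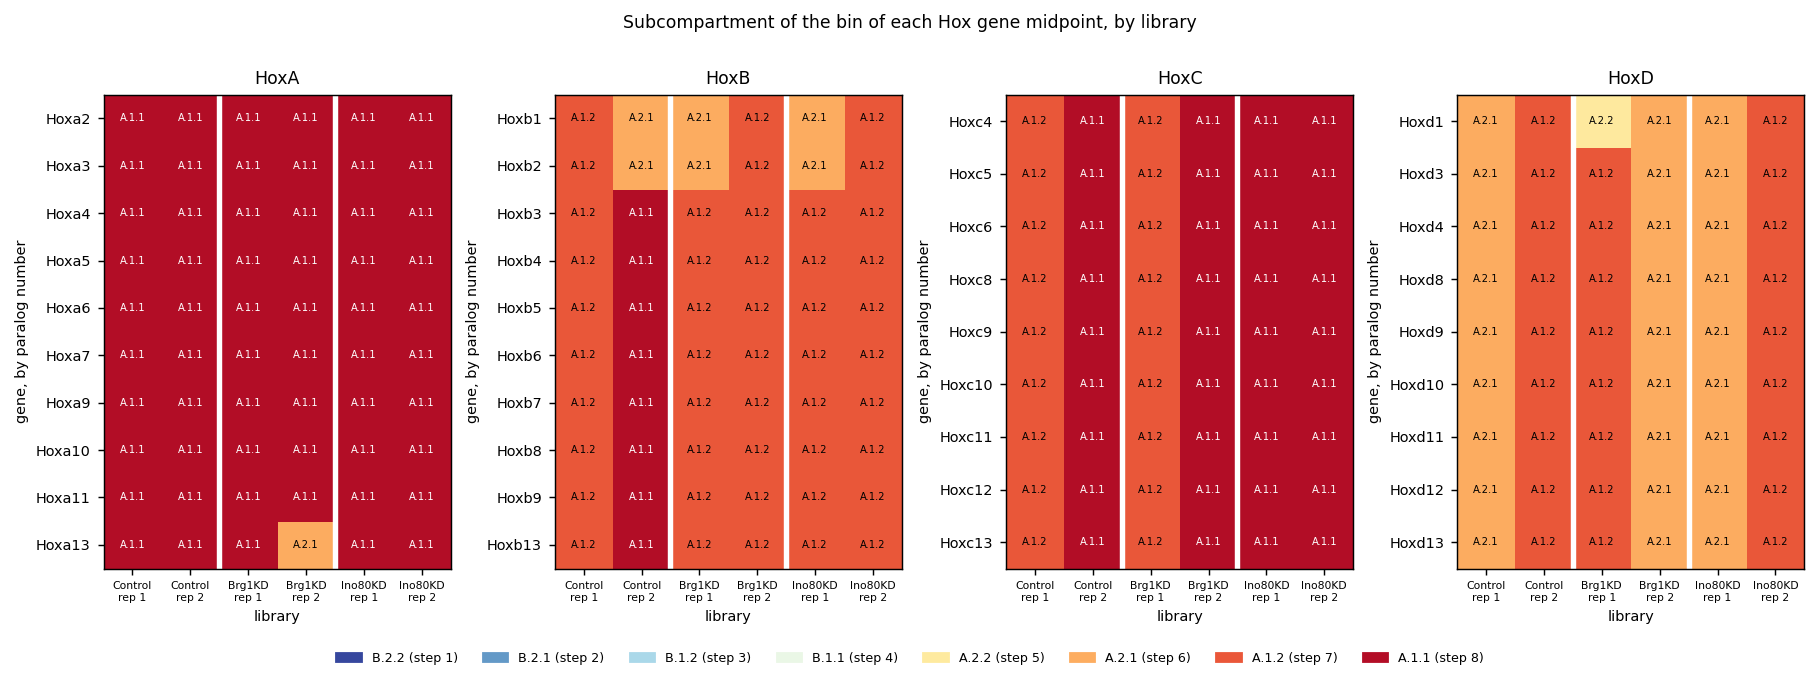
Subcompartment label of the Hox genes (rows, by paralog number) in each of the 6 libraries (columns), with colours from dark blue (B.2.2, step 1) to dark red (A.1.1, step 8). No tile is in B. HoxA is A.1.1 but for Hoxa13 in Brg1KD replicate 2, and in HoxB, HoxC and HoxD replicates of a group often hold different labels.

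Replicates often disagreed at the Hox bins in Control and Brg1KD, while in Ino80KD they agreed about as often as elsewhere. The 2 Control libraries gave the same label to 11 of the 39 genes (28.2%), against 72.8% of all protein-coding genes. The share was 46.2% in Brg1KD and 71.8% in Ino80KD, against 73.5% and 74.8% of all genes. By bins, 3, 5 and 9 of 13 had the same label in both replicates of Control, Brg1KD and Ino80KD. Over all bins the shares were 68.9%, 68.3% and 69.5%. These shares are descriptions, since the genes of a cluster mostly lie in a single segment.

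Over the 39 genes the mean step was 7.05 and 7.67 in the Control libraries, 7.18 and 7.23 in the Brg1KD libraries, and 7.23 and 7.51 in the Ino80KD libraries. The 2 Control libraries lay furthest apart and enclosed all 4 knockdown libraries. Group means were 7.36 ± 0.435 (SD, n = 2) in Control, 7.21 ± 0.0363 in Brg1KD and 7.37 ± 0.199 in Ino80KD. The difference was -0.154 for Brg1KD and 0.0128 for Ino80KD, against means of -0.00456 and -0.0245 and medians of 0 over all protein-coding genes. The Hox medians were 0 as well. For Brg1KD the sign was not stable: the difference was 0.128 within batch 1 and -0.436 within batch 2, and 0.154 without Control replicate 2 and -0.462 without Control replicate 1. For Ino80KD it was 0.179 within batch 1 and -0.154 within batch 2, and it ran from -0.295 to 0.321 when 1 library was left out. Brg1KD differed from Ino80KD by -0.167, with -0.0513 and -0.282 within the batches.

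No Hox gene lay in a bin called by limma (adjusted p under 0.05 over all bins) in any of the 3 comparisons, nor at an unadjusted p under 0.05, which 6.08%, 3.77% and 5% of bins reached. The percentages of all bins called were 4.83% for Brg1KD against Control, 3.22% for Ino80KD against Control and 3.96% for Brg1KD against Ino80KD. By direction, 1.53% were called towards A and 3.3% towards B in Brg1KD, 0.855% and 2.37% in Ino80KD, and 1.82% and 2.14% for Brg1KD against Ino80KD. Over protein-coding genes 3.48%, 2.47% and 2.73% were called. The fit with one common variance also called 0 of 39, where 3.4%, 0.683% and 1.08% of bins were called. The fit with the replicate block called Hoxd1 alone for Brg1KD against Control and against Ino80KD, where 5.34% and 4.31% of bins were called, and no Hox gene for Ino80KD against Control, where 3.52% were. None of the 13 Hox bins had groups that lay apart, with both libraries of one group beyond both of the other, against 10.3%, 6.25% and 8.86% of all bins. Of all bins, 3.13% lay apart towards A and 7.19% towards B in Brg1KD, 1.76% and 4.5% in Ino80KD, and 4.24% and 4.63% for Brg1KD against Ino80KD. With 2 libraries against 2, an exact permutation test cannot give a two-sided p below 0.333 for a single bin, and 18941 bins had no spread within groups at all, so limma's p-values are not calibrated and the labels themselves are given throughout. The comparisons with Control share the same 2 Control libraries.

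The clusters differed in what surrounded them. HoxB lay at least 2344 kb from any B segment and HoxA at least 1005 kb. HoxC had B chromatin 363 to 513 kb away on its Smug1 side. HoxD had B chromatin only 18.2 to 118 kb away on the side of Evx2 and Lnpk, and 385 to 485 kb away on the side of Mtx2, so it formed an island of A with B on both flanks. Among the 43 protein-coding neighbours within 500 kb of a cluster, 37 lay in A in all 6 libraries. Evx2, a homeobox gene 6.71 kb from Hoxd13, lay in the same bin as Hoxd13, so their labels are a single measurement. Lnpk, which encodes a protein of endoplasmic reticulum junctions, was B.1.2 in Control replicate 1 and B.1.1 in the other 5. Mtx2, a mitochondrial import gene, was A.2.2 in all 6. Skap2 next to HoxA and Smug1 next to HoxC were A.1.1 in all 6, and Ttll6 next to HoxB was A.1.1 in all but Ino80KD replicate 1. Skap1, on the other side of HoxB, was A.2.1 in all 6.

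Next to HoxA, Evx1, a homeobox gene 52.6 kb beyond Hoxa13, was lower in both knockdowns. Its bin was A.1.1 in both Control libraries, A.1.2 and A.2.1 in Brg1KD, and A.2.1 and A.2.2 in Ino80KD. The groups lay apart, with differences of -1.5 and -2.5 steps. limma did not call it (adjusted p = 0.733 and 0.458), while the fit with one common variance did (adjusted p = 0.0466 and 4.3e-05). The A.1.1 segment that holds HoxA reached chr6:52350000 in both Control libraries, chr6:52250000 in Brg1KD replicate 2 and chr6:52300000 in the other 3 knockdown libraries. Its edge thus lay at a coordinate 50 to 100 kb lower in all 4 knockdown libraries. In Brg1KD replicate 2 the segment ended short of Hoxa13, which lay outside it there.

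Other bins in the flanks also had groups apart. Hibadh, a gene of valine breakdown, lay 285 kb beyond HoxA and was A.2.1 in both Control libraries, A.1.2 in both Brg1KD libraries, and A.2.1 and A.1.2 in Ino80KD. The bin chr6:52800001-52850000, within Jazf1, was A.1.2 and A.1.1 in Control, A.2.2 in both Brg1KD libraries and A.1.2 in both Ino80KD libraries. The -2.5 step difference in Brg1KD was called with the common variance (adjusted p = 3.1e-05) and not in the limma fit of all libraries (adjusted p = 0.107). Beyond HoxC, the bins of Gtsf1, Gtsf2, Nckap1l, Pde1b and Ppp1r1a were A.2.1 in both Control libraries, B.1.1 and A.2.1 in Brg1KD, and A.1.2 in both Ino80KD libraries. They lay apart in Ino80KD and were not called (adjusted p = 0.97). Of the 43 neighbours 2 lay apart in Brg1KD and 6 in Ino80KD, beside 7.63% and 4.82% of all protein-coding genes, and 5 of these 6 were the HoxC neighbours just named, which rest on few bins. Beyond HoxD, the bin chr2:74150001-74200000, on the Lnpk side, was A.2.2 in both Control libraries and B.1.1 in all 4 knockdown libraries. It was the only flanking bin called by limma (adjusted p = 8.0e-08 for Brg1KD and 1.2e-07 for Ino80KD). Its adjusted p was 0.236 and 0.362 with the common variance, since the difference is a single step without any spread in these libraries. Of 94 flanking bins within 600 kb, 1 lay apart towards A and 5 towards B in Brg1KD, and 3 and 2 in Ino80KD. That is 6 and 5 of 94, against 10.3% and 6.25% of all bins, which is near or below the background.

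**Figure D2:**
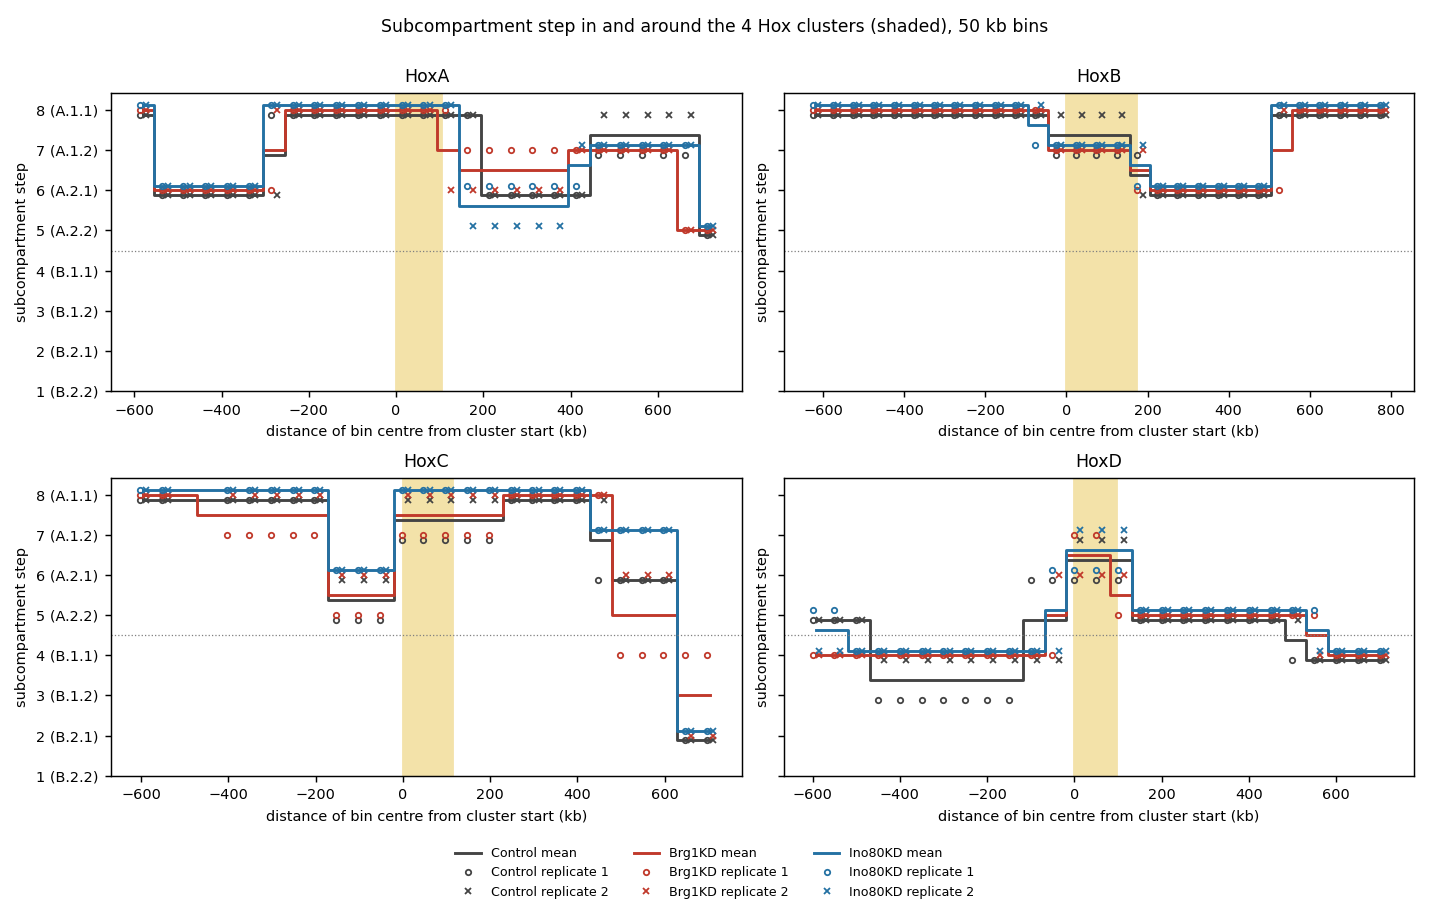
Subcompartment step (vertical axis, 1 to 8) of each 50 kb bin within 600 kb of each cluster, against distance from the cluster start in kb. Lines are group means, circles and crosses the 2 replicates, with groups shifted slightly up or down so that they can be told apart, and the dotted line parts A from B. HoxA and HoxB sit on plateaus of A, HoxD is a peak with B on both sides, and past the HoxA end the Control line stays at step 8 for at least 1 more bin than either knockdown line.

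Other regulators of the same biology were counted from lists chosen with earlier results of these data known, so the counts are descriptions. Over all protein-coding genes, groups lay apart at 7.63% in Brg1KD and 4.82% in Ino80KD, and the median difference was 0. The limma fit called 3.48% and 2.47% of them. The ParaHox and Cdx genes, relatives of the Hox genes that act upstream of them or beside them, could be placed for 5 of 6. Gsx1, Pdx1 and Cdx2 share 1 neighbourhood and were A.1.2 in both Control libraries and A.1.1 in both Brg1KD libraries, so 3 of 5 lay apart towards A, and 0 were called (adjusted p = 0.733). Gsx2 was A.1.2 in the Control and Brg1KD libraries and A.2.1 in both Ino80KD libraries. It was called there by limma (adjusted p = 1.2e-07) and not with the common variance (adjusted p = 0.362). The median differences of the 5 were 1 in Brg1KD and 0.5 in Ino80KD. All 5 lay in A in all 6 libraries, like the Hox genes.

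Of 9 cofactors of the TALE homeobox class, which bind DNA together with Hox proteins, 0 were called in either knockdown. Of 30 Polycomb genes, whose products repress the Hox clusters, and of 12 Trithorax and MLL genes, whose products keep them active, 0 were called in either knockdown, and Pcgf5 was the only one that lay apart, towards B in Ino80KD. Of 14 genes of retinoic acid, a signal that switches on anterior Hox genes, Aldh1a1 was called towards B in both knockdowns (B.2.1 in both Control libraries and B.2.2 in all 4 others). Crabp1 was called towards A in Ino80KD, and Aldh1a3 lay apart towards B in both without a limma call. Aldh1a1 and Crabp1 moved by a single step without any spread in these libraries. With the common variance the adjusted p of Aldh1a1 was 0.236 in Brg1KD and 0.362 in Ino80KD. That of Crabp1 was 0.362 in Ino80KD, and that of Aldh1a3 was 0.0466 in Brg1KD and 0.362 in Ino80KD. Over all protein-coding genes 3.48% and 2.47% were called in Brg1KD and Ino80KD and 7.63% and 4.82% lay apart. The retinoic acid list stood above these shares, with 14.3% and 21.4% of its 14 genes apart and 1 and 2 called. With 9 to 30 genes and 0 to 2 calls a list, single genes weigh heavily in such shares. Differences from the background were not tested. Median differences were 0 in each of these 4 lists in both knockdowns. All 12 Trithorax and MLL genes and 96.7% of the Polycomb genes lay in A in every library.

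Of 95 other developmental homeobox and Pax genes, 3 were called towards A and 1 towards B in Brg1KD, and 1 towards A and 3 towards B in Ino80KD. That is 4 of 95 in each, beside 3.48% and 2.47% of all protein-coding genes. In Brg1KD, Evx1 and Irx6 were among those with the largest differences with groups apart, each -1.5 steps and neither called by limma. In Ino80KD the largest were Evx1 (-2.5) and Mnx1 (-2), also not called by limma. The genes called in Brg1KD were Hmx1, Pitx1 and Irx1 towards A and Barx2 towards B, and those called in Ino80KD were Irx1 towards A and Uncx, Barx1 and Barx2 towards B. Each called gene moved by a single step without any spread in these libraries. With the common variance their adjusted p was 0.236 in Brg1KD and 0.362 in Ino80KD. That fit called 4 and 3 other genes of the list, Evx1 among them in both. In this list 11 lay apart in Brg1KD (11.6%) and 8 in Ino80KD (8.42%), beside 7.63% and 4.82% of all protein-coding genes, with medians of 0.

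The loop lists held 5903 loops for Control, 6013 for Brg1KD and 5475 for Ino80KD. Loops with an anchor inside or within 50 kb of a Hox cluster numbered 29, 25 and 26, or 0.491%, 0.416% and 0.475% of each list. HoxA had 9, 7 and 7 of them, HoxB 8, 6 and 9, HoxC 2 in each list and HoxD 10, 10 and 8. Their median length was 590, 570 and 570 kb, against 250 kb in each whole list, and they ran from 80 to 1400 kb. An anchor overlapped 16 Hox genes in each list, against 22.6%, 22.8% and 21.5% of all protein-coding genes. All 39 Hox genes lay within 50 kb of an anchor, against 56.9%, 57.1% and 54.4%. The clusters are only 96.9 to 174 kb long, so a single anchor can lie within 50 kb of many of their genes. These counts thus rest on 4 clusters and not on 39 separate places, while the shares cover genes spread over the genome.

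Of the 29 Control loops, 15 stood in the Brg1KD list with identical anchors, against 45.7% of all Control loops, and 13 in the Ino80KD list, against 46.4%. When both anchors could differ by up to 10 kb, 23 were matched in each, against 77% and 75.1%, and within 20 kb 23 and 24, against 79.6% and 77.5%. These shares lie close to those of all loops. In both knockdown lists at once, 7 of 29 were found with identical anchors (30.7% of all), 19 within 10 kb (65.7%) and 19 within 20 kb (69%). Missing from both knockdown lists were 8 with identical anchors (38.6%), 2 within 10 kb (13.5%) and 1 within 20 kb (11.9%). Of the 25 Brg1KD loops, 9 had no identical match in another list (44% of all), 2 none within 10 kb (17.7%) and 1 none within 20 kb (15.7%). Of the 26 Ino80KD loops these were 12 (37.7%), 3 (11.8%) and 1 (9.81%).

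**Figure D3:**
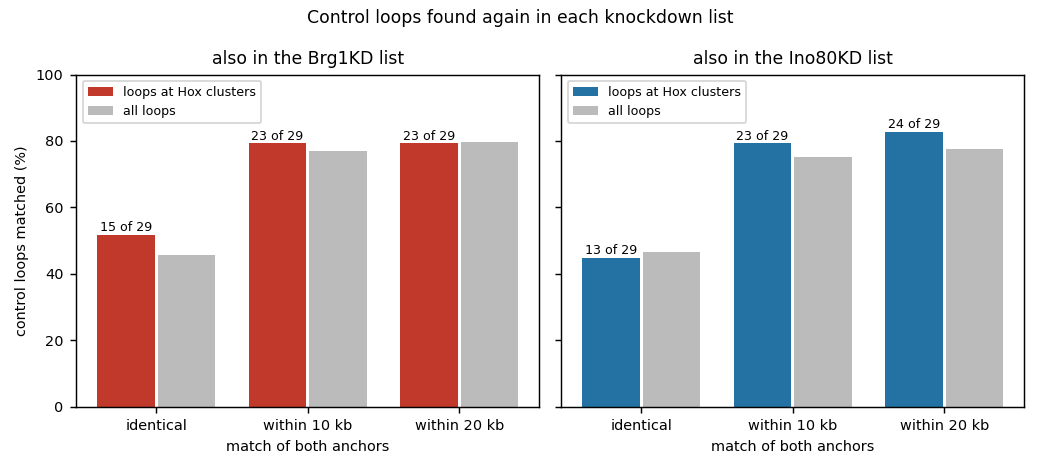
Share of Control loops matched in the Brg1KD list (left) and the Ino80KD list (right), in percent, with identical anchors or with both anchors within 10 or 20 kb. Coloured bars are the 29 loops at Hox clusters and grey bars all 5903 Control loops, and the 2 bars of a pair lie near each other at each tolerance.

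Pooled over the 4 clusters, the direction of the loops mostly followed the order of the genes. Among loops that leave a cluster, those whose near anchor was closest to a gene of paralog groups 10 to 13 reached out on the posterior side in 11 of 13 cases in Control, 9 of 10 in Brg1KD and 9 of 11 in Ino80KD. Those closest to groups 1 to 9 reached out on the anterior side in 13 of 13, 13 of 13 and 11 of 12 cases. The exceptions were the loop from Evx1os past HoxA to the anterior side in all 3 lists, the loop from Hoxb13 over the whole cluster to Sp6 in Control and Ino80KD, and a loop between Calcoco2 and an anchor 31.3 kb from Hoxb9 in Ino80KD. HoxB did not share the posterior part of this order: it had 0, 0 and 1 posterior-side loops in Control, Brg1KD and Ino80KD. On its anterior side it had 6, 4 and 6. The other posterior-side loops came from HoxA (4, 3 and 3), HoxC (1 in each list) and HoxD (6, 5 and 5). Many loops recur between the 3 lists, so the lists are not separate counts. An anchor outside a cluster was given to the gene at that end. Anchors on a posterior flank thus counted as paralog group 13 by position, so part of this order is built in. Posterior genes also lie nearer the posterior edge, and the share of position in this order was not tested.

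At HoxD, 5 loops had identical anchors in all 3 lists and 8 Control loops matched both knockdown lists within 10 kb. The longest joined the anchor over Hoxd13, Hoxd12 and Hoxd11 with Sp9, a zinc finger gene of limb and forebrain, over 1400 kb. From the anchor over Evx2 and Hoxd13, genes of the digits and genital bud, loops reached the acetylcholine receptor gene Chrna1 or the anchor next to it (1110 kb in Control) and Atp5g3 (760 kb in Control), in all 3 lists within 10 kb. From the next 20 kb outwards, loops reached anchors without a protein-coding gene at chr2:74060001-74070000 and chr2:74300001-74310000, also in all 3. On the other side, the anchor over the Hoxd3 promoter shown above joined chr2:74960001-74970000 and chr2:75140001-75150000 with identical anchors in all 3 lists. The anchor over Hoxd8 and Hoxd9 likewise joined Gm50595, 890 kb away. The loop from Hoxd8 and Hoxd9 to chr2:75310001-75320000 stood in Control and Brg1KD and not in Ino80KD, even within 20 kb. A 680 kb loop from Evx2 to chr2:73970001-73980000 stood in Control alone, and a 340 kb loop from Hoxd3 to chr2:75050001-75060000 in Brg1KD alone.

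At HoxA, the anchor over the Hoxa3 and Hoxa7 promoters joined Snx10, a sorting nexin gene 620 kb away, with identical anchors in all 3 lists. An anchor at Hoxa9 or Hoxa7 and another at Evx1 or its antisense RNA Evx1os both joined a region about 1 Mb away, at chr6:51170001-51190000, in all 3 lists within 10 kb. The anchor over Hoxa13 and the long noncoding RNA Hottip joined Jazf1 570 kb away, matched in all 3 lists within 10 kb, and in Control it carried 3 loops, all to Jazf1. Of the 2 longer ones, the 650 kb loop was matched in Brg1KD alone and the 720 kb loop in Ino80KD alone. The 140 kb loop between an anchor inside Hoxa3 and Evx1 stood in Control and Ino80KD with identical anchors and was missing from Brg1KD even within 20 kb. The bin of its Evx1 anchor was the one lower in both knockdowns, so the loop was listed in Ino80KD although that bin stood 2.5 steps below Control.

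At HoxB, the anchor over Hoxb8 and Hoxb7, whose Hoxb8 promoter is shown above, carried 3 loops in Control and in Brg1KD, to Skap1 at 270 and 400 kb and to Copz2 at 570 kb. In Ino80KD it carried 1, to Copz2. The 270 kb loop was matched there from the next anchor, and the 400 kb loop was missing within 20 kb. The inner loop between Hoxb3 and the Hoxb13 end (160 kb) and the loop from Ttll6 to the gene-free stretch between Hoxb13 and Hoxb9 (80 kb) stood in all 3 lists within 10 kb. Sp6, a zinc finger gene of tooth and limb, was joined from Hoxb13 and from Hoxb3 in Control, from Hoxb6 and Hoxb7 in Brg1KD, and from 3 anchors, nearest to Hoxb13, Hoxb9 and Hoxb3, in Ino80KD. The loop from Hoxb13 to Sp6 (830 kb) was missing from Brg1KD within 20 kb. A loop between the Hoxb1 end and Skap1 (340 kb in Control) was matched in Ino80KD within 20 kb and missing from Brg1KD. HoxC had the fewest loops: Hoxc9 to an anchor 1.06 kb from Smug1 (190 kb) with identical anchors in all 3 lists, and a 130 kb loop upstream of Hoxc13, matched within 10 kb.

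**Figure D4:**
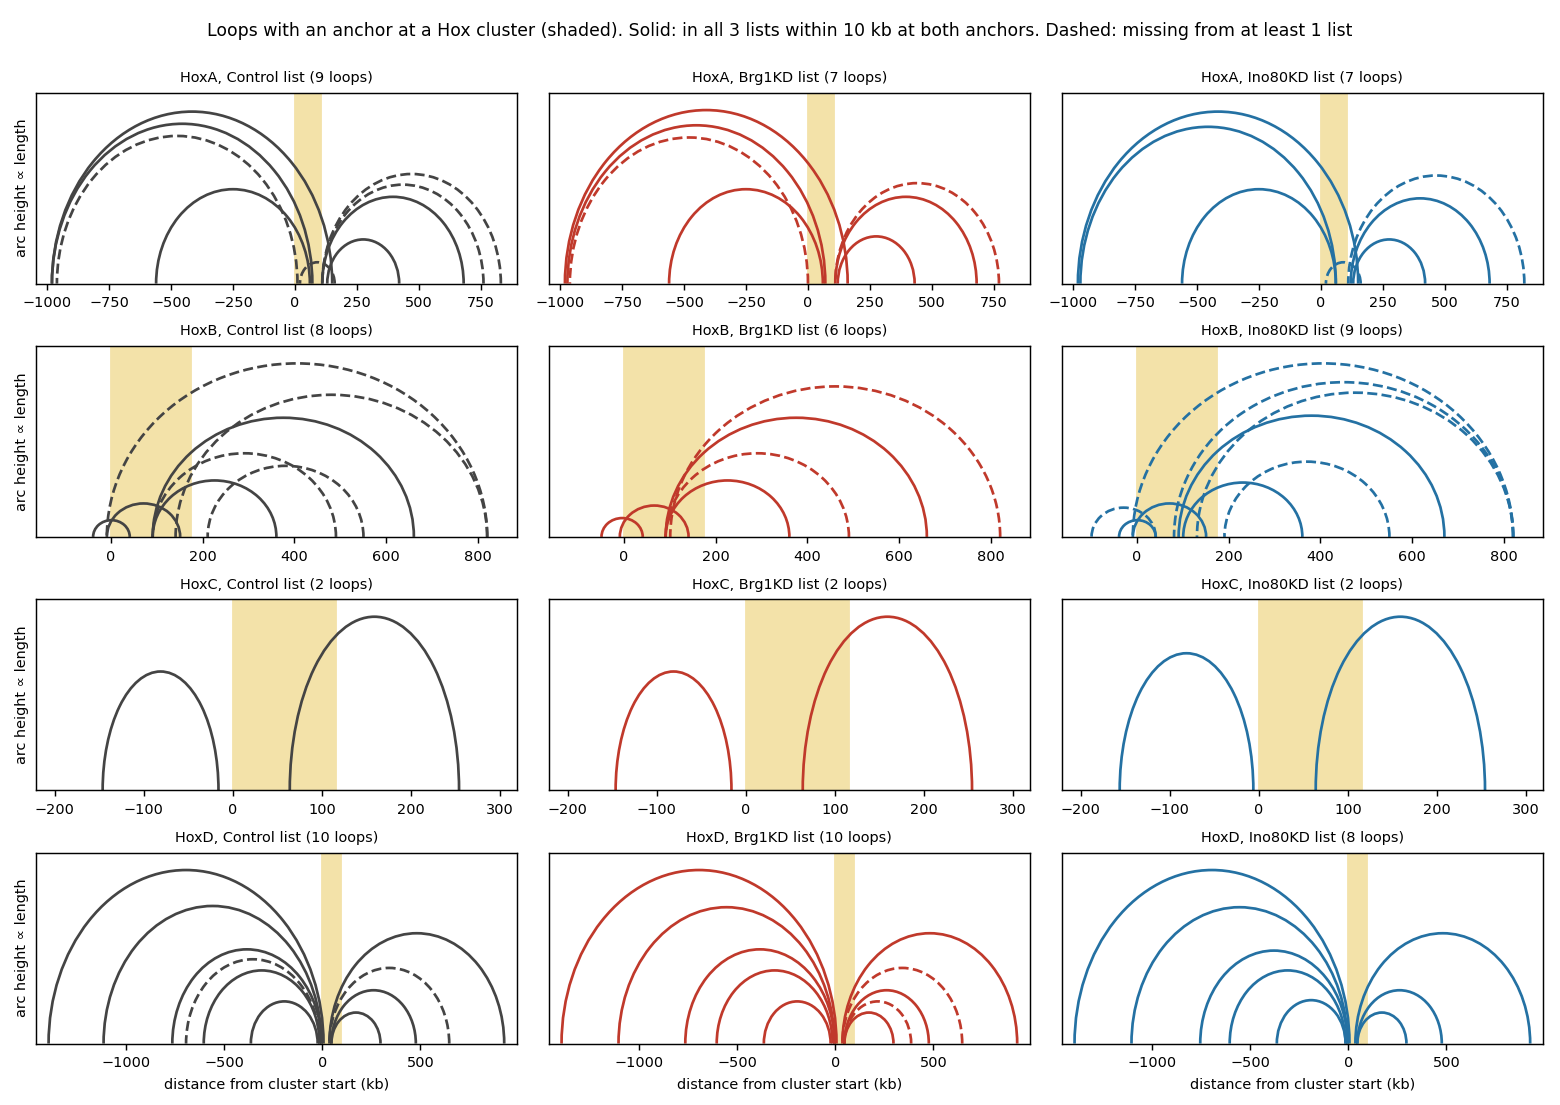
Loops of the 3 lists at each cluster as arcs against distance from the cluster start in kb, with the cluster shaded and arc height in proportion to loop length. Solid arcs are found in all 3 lists within 10 kb at both anchors and dashed arcs are missing from at least 1 list. HoxD loops fan out to both sides, HoxB loops mostly to the anterior side, and HoxC has 2 loops in each list.

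The outer anchors of these loops lay in 27 bins outside the 13 Hox bins. Of these, 22 were in A and 3 in B in all 6 libraries, and 15 had the same label in all 6. In Brg1KD 8 of 27 (29.6%) had groups apart, 4 towards A and 4 towards B, beside the 10.3% of all bins given above and 11.5% of the 10652 bins with a loop anchor. In Ino80KD 2 of 27 (7.41%) lay apart, beside 6.25% and 6.07%. Bins of 1 region share segments, so these are not independent, and the bins were taken from loops of all 3 lists after the labels were known.

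The bin joined by HoxA across about 1 Mb was A.2.1 in both Control libraries and A.1.2 in all 4 knockdown libraries. It was the only outer bin called by limma in either knockdown (adjusted p = 8.0e-08 and 1.2e-07, and 0.236 and 0.362 with the common variance). The bins of Sp9 and Chrna1, joined by HoxD, were A.1.2 in both Control libraries and A.1.1 in both Brg1KD libraries, and in Ino80KD 1 of 2 libraries held each label (adjusted p = 0.733 for Brg1KD). The outer bins at 590 and 680 kb from Evx2 were A.2.2 in both Control libraries, B.1.1 in both Brg1KD libraries, and A.2.2 and B.1.1 in Ino80KD (adjusted p = 0.733 for Brg1KD). The loop to the first of them was listed with identical anchors in all 3 lists, and the loop to the second in Control alone. The outer bins of Snx10, Copz2 and Sp6 were A.1.1 in all 6 libraries, and the outer bins of Hoxd3 were A.2.2 in all 6. Gm50595, joined by Hoxd8 and Hoxd9, was B.1.1 in all 6, so the bins of this loop joined A with B in every library.

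**Figure D5:**
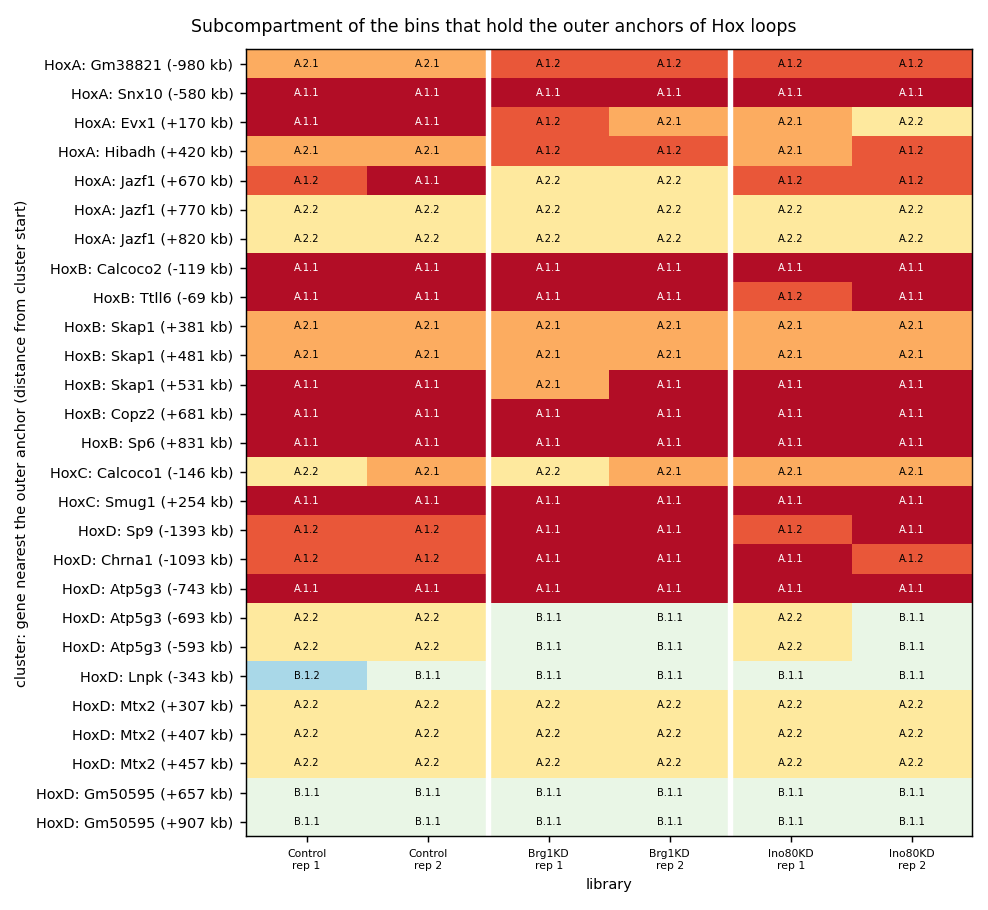
Subcompartment label of the 27 bins that hold the outer anchors of the loops (rows, with the nearest gene and the distance from the cluster start in kb) in the 6 libraries (columns), coloured as in the plot of Hox gene labels. The Gm38821, Sp9, Chrna1 and Hibadh rows are redder in both Brg1KD libraries than in both Control libraries, and the Evx1 row, 1 Jazf1 row and 2 of the Atp5g3 rows are paler or bluer.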

How the data were processed

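Hi-C was done on 6 libraries of E14 cells, 2 a group. The submitters' processing notes name mm10 as the build and, with no role for any, bedtools, HOMER, Juicer 2.0, SAMtools and BWA. For the calling of subcompartments and loops and for library depth, details are not given in the sources used here. For each segment on the autosomes, the authors deposited a label and a score (the step divided by 8), and for loops their positions. Each group has 1 loop list, whose name says merged although GEO ties it to replicate 2. It was treated as a pool of both replicates.

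Labels were read at 50 kb bins and tested as steps with limma 3.58.1 in R 4.3.3 (lmFit, eBayes, all 6 libraries in 1 fit, group only, Benjamini-Hochberg over 47717 bins, threshold 0.05), after checks on simulated data. Alternatives were one common variance, the replicate number as a block, only the 4 libraries compared, gaps of at least 2 steps, either gene end in place of the midpoint, each library left out, and other anchor tolerances and windows. The replicate number pairs the libraries because the labels call it a batch. Members and lists were chosen with earlier results of these data known. All 39 genes are accounted for. Named besides are genes at cluster ends, bins called or apart, the nearest neighbours, up to 3 members a list by size of difference, and genes nearest to loop anchors. Promoters were matched for 22 of the 39 Hox genes. Results of some single genes are not reported here, although counts include them.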

Additional observations from a re-analysis of the deposited data

How the results depend on the processing

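Calls were few and turned on single libraries. With the replicate number as a block, 1 Hox gene was called for Brg1KD against Control and 1 for Brg1KD against Ino80KD (Hoxd1 in both), and 0 for Ino80KD against Control, so the block changed no other call. With 1 library left out, the number of Hox genes called ran from 0 to 8 for Brg1KD against Control, from 0 to 8 for Ino80KD against Control and from 0 to 1 for Brg1KD against Ino80KD. The 8 were called without Control replicate 1. In these fits calls rose over all bins too, to between 10.02% and 11.5%, 8.17% and 9.86%, and 9.13% and 10.4%. A fit of only the 4 libraries compared called 8.08%, 5.17% and 6.90% of all bins and 0 Hox genes. The number of Hox bins with groups apart ran from 0 to 4, from 0 to 3 and from 0 to 4 in the same order, while 19.8% to 22.2%, 15.0% to 18.2% and 18.3% to 20.3% of all bins lay apart. Matching loops within 10 kb gave 23 Control loops in the Brg1KD list and 23 in the Ino80KD list, and within 20 kb 23 and 24, in place of 15 and 13 with identical anchors. Of 86 values under an alternative, 18 moved and the others kept their side of the threshold or stayed within 1 SD or 1.5 times. Within 1 SD the mean differences over the 39 genes still changed sign, as given with them. Depth is unknown, labels come in whole steps, and loops have no replicate.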
